A study of Mus musculus with 12 samples.

Results

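The transcripts of 10 genes of transforming growth factor beta (TGF-beta) signalling were followed in CD4+ T cells of the mouse spleen: the ligand *Tgfb1*, the receptors *Tgfbr1*, *Tgfbr2* and *Tgfbr3*, the signal transducers *Smad2*, *Smad3* and *Smad4*, and the inhibitors *Smad7*, *Ski* and *Skil*. They were taken by name from the 17523 genes of the deposited table, with no threshold on their values. All 10 were listed, and all 10 passed the filter on low values that left 15587 genes for testing. In these cells the strongest difference was between naïve and effector memory (TEM) cells: *Smad7* and *Tgfbr3* were more than 3-fold lower in TEM cells of either YFP status. Between TEM cells with and without a history of GM-CSF expression, *Smad3* had the largest difference of the 10, at 1.67-fold higher in YFP+ cells and higher in each of 3 replicate pairs, and was called when the replicate number was a block in the fit but not without it.

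TGF-beta is secreted in a latent form and acts once it is released. It binds the type II receptor (*Tgfbr2*), which then phosphorylates the type I receptor kinase (*Tgfbr1*), and the type III receptor betaglycan (*Tgfbr3*) is a co-receptor that presents ligand. The active type I receptor phosphorylates SMAD2 and SMAD3, which join SMAD4 and enter the nucleus. SMAD7 blocks the receptor and is itself induced by the pathway, while SKI and SKIL (SnoN) bind SMAD complexes and hold target genes down. In T cells the pathway is known for restraining activation and for its part in the regulatory and Th17 programmes.

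The cells came from unimmunised 2- to 3-month-old Gr/fr mice on the C57BL/6 background. In all 4 groups the *Csf2* locus also carries iCre and BFP, and the Rosa26 locus an eYFP gene behind a stop cassette, so that YFP marks cells that make, or whose ancestors made, GM-CSF. Naïve CD4+ cells (low in CD44) and TEM CD4+ cells (CD44hi) were each split by YFP, and each of the 4 groups has 3 libraries. YFP records the past, so a YFP+ cell need not express *Csf2* when sorted. The sort as described names no step that excludes regulatory T cells or NKT cells.

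The libraries held 40974124 to 57822269 reads on genes. *Cd44* ran from 2334 to 3372 normalised counts (reads divided by the size factor of the library) in naïve and from 21778 to 29383 in TEM libraries. *Csf2* lay between 55.9 and 152 in YFP+ TEM cells and at most 3.94 in every other library. Summed levels of 10 plasmacytoid dendritic cell markers were 15177 to 26313 in YFP- and 7081 to 10080 in YFP+ TEM cells. Within this list *Siglech* had means of 2681 and 66.8, *Klk1* of 910 and 22.7, and *Bst2* of 2993 and 1771. Only *Ccr9* had a higher mean in YFP+ TEM cells, at 2442 beside 975. The 7 conventional dendritic cell markers summed to 8042 to 16229 in YFP- and 468 to 1013 in YFP+ TEM cells. The 8 macrophage and neutrophil markers summed to 6111 to 11744 and to 1817 to 3501, and the 3 NKT cell markers to 350 to 545 and to 2691 to 6361. The 7 regulatory T cell markers summed to 53323 to 73384 in YFP- and to 44527 to 49696 in YFP+ TEM cells. Among these 7 only *Il2ra* had a higher mean in YFP+ TEM cells, at 7783 beside 4999. The 4 NK cell markers in the table summed to 618 to 838 in YFP- and 1376 to 2085 in YFP+ TEM cells. Most of that rise was *Klrb1c*, with means of 154 and 1304, which is also 1 of the 3 NKT cell markers. Of the NK list only *Eomes* had a lower mean in YFP+ TEM cells, at 390 beside 527. The 2 CD8 markers summed to 685 to 1490 and to 187 to 373, and the 6 B cell markers to 409 to 497 and to 331 to 862. The part of these other cells in the differences below was not tested. In bulk samples, fewer cells of a type and less RNA per cell cannot be told apart.

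**Figure D1:**
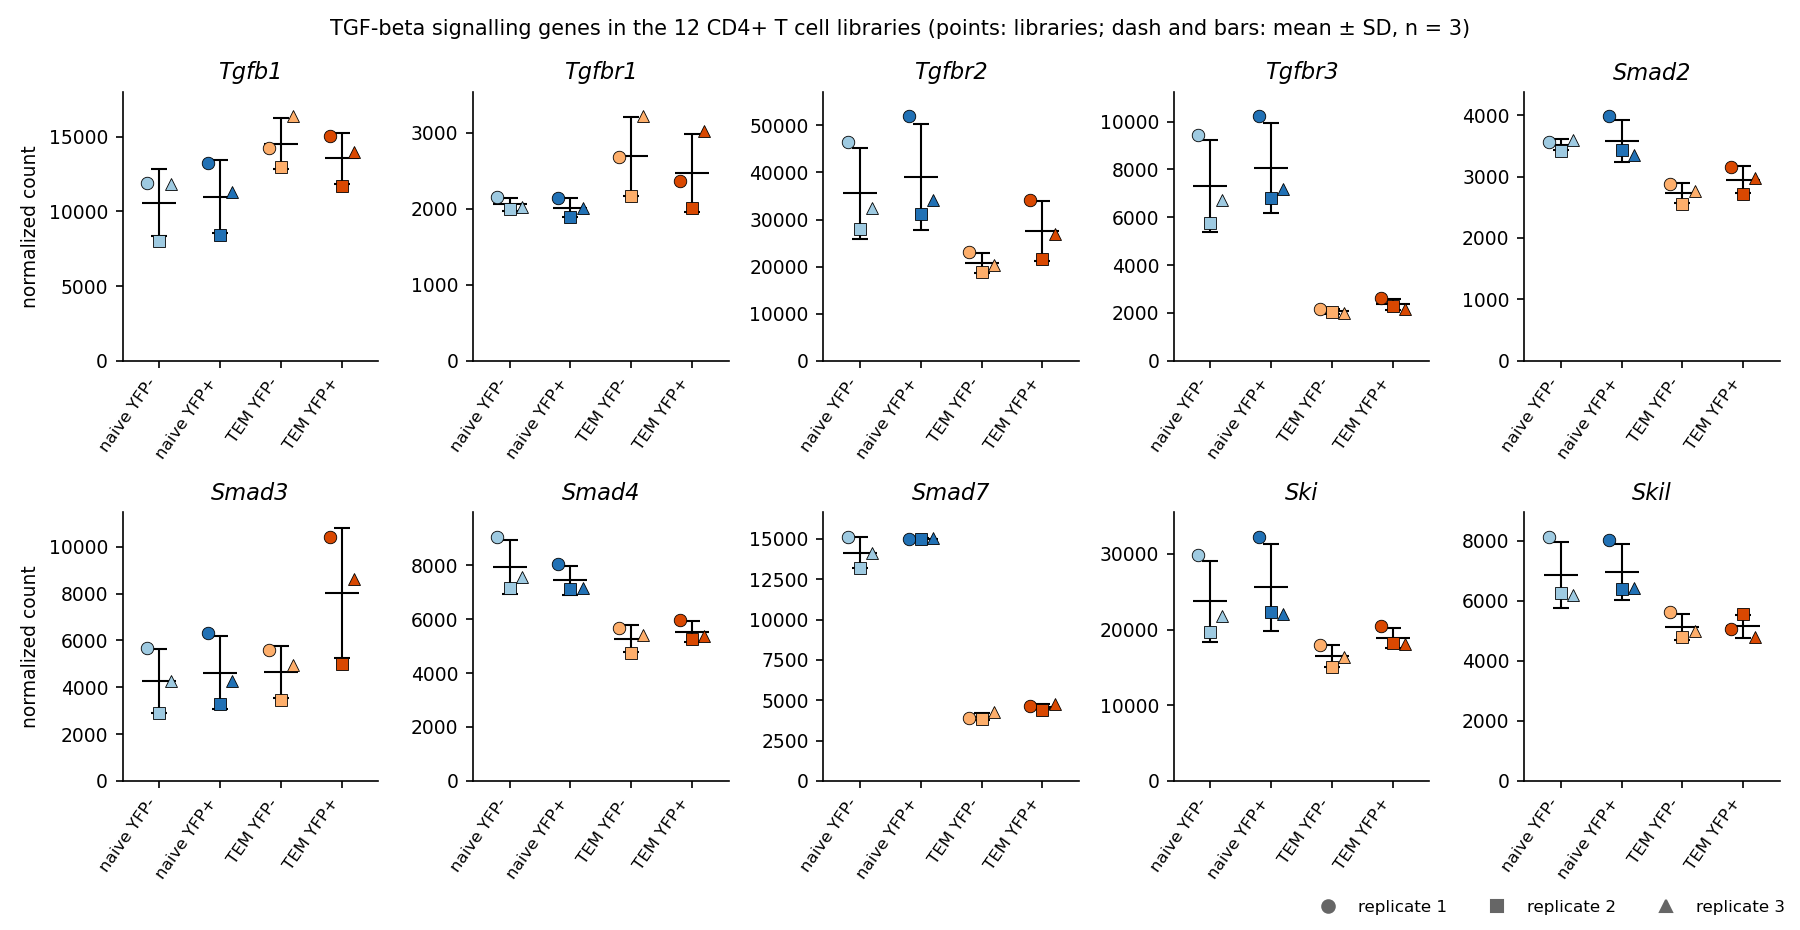
Normalised counts (linear axes from 0) of the 10 genes in the 12 libraries, with a panel per gene, symbols for replicate numbers and the mean ± SD (n = 3) in black. *Smad7* and *Tgfbr3* fell to a separate low range in TEM cells, and *Smad3* was highest in YFP+ TEM cells.

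Divided by exon length, the members covered a wide range of normalised counts per kilobase. The lengths come from a GENCODE annotation that is not known to be the one used in counting, which limits the order between genes. In YFP- naïve cells *Tgfbr2* (4346 ± 1184 per kilobase, SD, n = 3 here and below) and *Ski* (4270 ± 961) had the highest levels and did not differ beyond their spread. *Smad7* (3130 ± 212) came next on average, its mean ± SD overlapping theirs. Below it were *Smad4* (2133 ± 271) and *Tgfb1* (2101 ± 439), which overlapped each other. *Tgfbr3* (1115 ± 293), *Smad3* (771 ± 248) and *Skil* (708 ± 113) followed, each overlapping the next. *Smad2* (401 ± 10.9) and *Tgfbr1* (315 ± 12.9) had the lowest levels. In YFP+ TEM cells *Ski* (3393 ± 239) and *Tgfbr2* (3367 ± 771) were still highest on average. *Tgfb1* (2690 ± 340) came next and overlapped *Tgfbr2*. *Smad4* (1491 ± 104) and *Smad3* (1446 ± 500) did not differ beyond their spread. *Smad7* (1016 ± 36.2) had moved below *Smad4* and overlapped *Smad3*. *Tgfbr1* (378 ± 78.7), *Tgfbr3* (360 ± 36.1) and *Smad2* (336 ± 24.8) formed the bottom of the order and overlapped.

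TEM cells were first set against naïve cells to ask how the pathway's transcripts differ between resting and antigen-experienced CD4+ cells. In the YFP- fraction 7 of the 10 genes fell (*Tgfbr2*, *Tgfbr3*, *Smad2*, *Smad4*, *Smad7*, *Ski* and *Skil*) and 1 rose (*Tgfb1*). In the YFP+ fraction 5 fell (*Tgfbr3*, *Smad2*, *Smad4*, *Smad7* and *Skil*) and 0 rose. A gene was called at an adjusted p of 0.05 or less in limma. Among all genes tested, 19.9% were called lower and 29.9% higher in YFP- TEM cells, and 16.7% lower and 24.7% higher in YFP+ TEM cells. The median log2 fold change of the 10 genes was -0.46 in YFP- and -0.42 in YFP+ cells, beside 0.05 and 0.03 for all genes. The same median over all genes was -0.20 and -0.14 after quantile normalisation, under which *Tgfb1* in YFP+ cells passed (0.41, adjusted p = 0.0349).

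The ligand *Tgfb1* had 11928, 8036 and 11815 normalised counts in YFP- naïve replicates 1, 2 and 3, and 14237, 13006 and 16364 in YFP- TEM cells. Every TEM library was above every naïve one. The rise was 1.39-fold (log2 0.47 ± 0.19 SE, adjusted p = 0.0499 in limma), at the edge of the threshold. It was lost in 12 of 25 alternatives with the same call rule, among them leaving out YFP- naïve replicate 2 (adjusted p = 0.21) or YFP- TEM replicate 3 (adjusted p = 0.161), and adjusted p was 0.00117 with the replicate number as a block. In YFP+ cells the counts were 13241, 8408 and 11332 in naïve and 15031, 11679 and 13984 in TEM cells. These groups overlapped, and the log2 fold change of 0.32 ± 0.19 did not pass (adjusted p = 0.19).

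Among the receptors, *Tgfbr3* changed most. It had 9447, 5757 and 6699 normalised counts in YFP- naïve cells and 2170, 2025 and 1974 in YFP- TEM cells. In the YFP+ fraction it had 10214, 6814 and 7162 in naïve and 2619, 2297 and 2158 in TEM cells. The highest TEM library of either fraction lay below the lowest naïve library. The level was 3.47-fold lower in YFP- TEM cells (log2 -1.80 ± 0.18, adjusted p = 3.95e-06) and 3.37-fold lower in YFP+ TEM cells (log2 -1.75 ± 0.18, adjusted p = 7.22e-06). The calls held in all 25 alternatives with the same call rule in either fraction.

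*Tgfbr2*, the ligand-binding receptor, had 46473, 27906 and 32354 normalised counts in YFP- naïve cells and 22998, 18772 and 20254 in YFP- TEM cells. The groups did not overlap, and the level fell 1.69-fold (log2 -0.75 ± 0.23, adjusted p = 0.0154). Without YFP- naïve replicate 1, the highest library, adjusted p was 0.0718, and without YFP- TEM replicate 2 it was 0.0561. In YFP+ cells the counts were 51920, 31255 and 34052 in naïve and 34174, 21597 and 26919 in TEM cells, which overlapped. There the log2 fold change was -0.49 ± 0.23 (adjusted p = 0.106).

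*Tgfbr1*, the type I receptor kinase, differed less and in the other direction. Its counts were 2155, 1995 and 2029 in YFP- naïve and 2680, 2174 and 3216 in YFP- TEM cells, with every TEM library above the naïve ones. The log2 fold change of 0.37 ± 0.15 missed the threshold (adjusted p = 0.0623), and passed with the replicate block (adjusted p = 0.0132). In YFP+ cells the counts were 2146, 1886 and 2016 in naïve and 2372, 2014 and 3028 in TEM cells, with a log2 fold change of 0.28 ± 0.15 (adjusted p = 0.17).

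Of the signal transducers, *Smad4*, the partner shared by all receptor-activated SMADs, had 9053, 7144 and 7554 normalised counts in YFP- naïve and 5681, 4739 and 5413 in YFP- TEM cells. In the YFP+ fraction the counts were 8056, 7099 and 7137 in naïve and 5974, 5248 and 5377 in TEM cells. All TEM libraries lay below all naïve libraries. The log2 fold change was -0.58 ± 0.10 in YFP- (adjusted p = 0.000542) and -0.43 ± 0.10 in YFP+ cells (adjusted p = 0.00602), and both calls held in all 25 alternatives with the same call rule.

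*Smad2*, one of the receptor-activated transducers, had 3565, 3413 and 3590 normalised counts in YFP- naïve and 2876, 2555 and 2772 in YFP- TEM cells. In the YFP+ fraction it had 3982, 3431 and 3354 in naïve and 3157, 2725 and 2978 in TEM cells. The groups did not overlap in either fraction. The log2 fold change was -0.37 ± 0.087 in YFP- (adjusted p = 0.00371) and -0.28 ± 0.087 in YFP+ cells (adjusted p = 0.0212). The YFP+ call was lost without YFP+ naïve replicate 1 (adjusted p = 0.082) or YFP+ TEM replicate 2 (adjusted p = 0.0852). It was also lost when only the compared libraries were fitted (adjusted p = 0.0653 in limma).

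*Smad3*, the other receptor-activated transducer, did not follow the fall of *Smad2* and *Smad4*. It had 5663, 2914 and 4247 normalised counts in YFP- naïve and 5595, 3441 and 4961 in YFP- TEM cells, which overlapped almost fully (log2 fold change 0.15 ± 0.32, adjusted p = 0.726). In the YFP+ fraction the counts were 6336, 3270 and 4249 in naïve and 10430, 4985 and 8619 in TEM cells. There it was 1.72-fold higher in TEM cells on average (log2 0.78 ± 0.32, 95% interval 0.09 to 1.47, adjusted p = 0.0676), which did not pass. It passed in DESeq2 (adjusted p = 0.0303) and after quantile normalisation (adjusted p = 0.0377). Adjusted p was 0.0273 without YFP+ naïve replicate 1 and 0.0163 without YFP+ TEM replicate 2.

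Of the inhibitors, *Smad7* gave the tightest values. It had 15131, 13213 and 14106 normalised counts in YFP- naïve cells and 3921, 3811 and 4246 in YFP- TEM cells. The YFP+ fraction had 15003, 14986 and 15023 in naïve and 4622, 4419 and 4742 in TEM cells. The 3 YFP+ naïve libraries agreed to within less than 1% and the gap to TEM cells was far wider than any spread between replicates. The level was 3.54-fold lower in YFP- TEM cells (log2 -1.82 ± 0.074, adjusted p = 4.17e-09) and 3.27-fold lower in YFP+ TEM cells (log2 -1.71 ± 0.074, adjusted p = 7.9e-09), and both calls held in all 25 alternatives with the same call rule.

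*Ski* and *Skil*, the nuclear repressors, fell less. *Ski* had 29800, 19664 and 21787 normalised counts in YFP- naïve and 18021, 15076 and 16340 in YFP- TEM cells (log2 fold change -0.51 ± 0.17, adjusted p = 0.025). It had 32258, 22345 and 22073 in YFP+ naïve and 20402, 18175 and 18038 in YFP+ TEM cells (log2 -0.42 ± 0.17, adjusted p = 0.0676). The groups did not overlap in either fraction. The YFP- call was lost without YFP- naïve replicate 1 (adjusted p = 0.111), YFP- TEM replicate 2 (adjusted p = 0.0878) or YFP- TEM replicate 3 (adjusted p = 0.0612). In YFP+ cells it was gained with TMM factors (adjusted p = 0.0447), in edgeR (adjusted p = 0.0452), in DESeq2 (adjusted p = 0.0373), and in limma without YFP- naïve replicate 1 (adjusted p = 0.0352) or YFP+ naïve replicate 2 (adjusted p = 0.0499).

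*Skil* had 8130, 6272 and 6200 normalised counts in YFP- naïve and 5627, 4794 and 4987 in YFP- TEM cells. It had 8025, 6383 and 6434 in YFP+ naïve and 5074, 5552 and 4799 in YFP+ TEM cells. Every TEM library was below every naïve one of its fraction. The log2 fold change was -0.41 ± 0.12 in YFP- (adjusted p = 0.0146) and -0.43 ± 0.12 in YFP+ cells (adjusted p = 0.0143). The YFP- call was lost without YFP- naïve replicate 1 (adjusted p = 0.0663) or YFP- TEM replicate 2 (adjusted p = 0.0577), and the YFP+ call without YFP+ naïve replicate 1 (adjusted p = 0.0584) or YFP+ TEM replicate 3 (adjusted p = 0.0562).

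**Figure D2:**
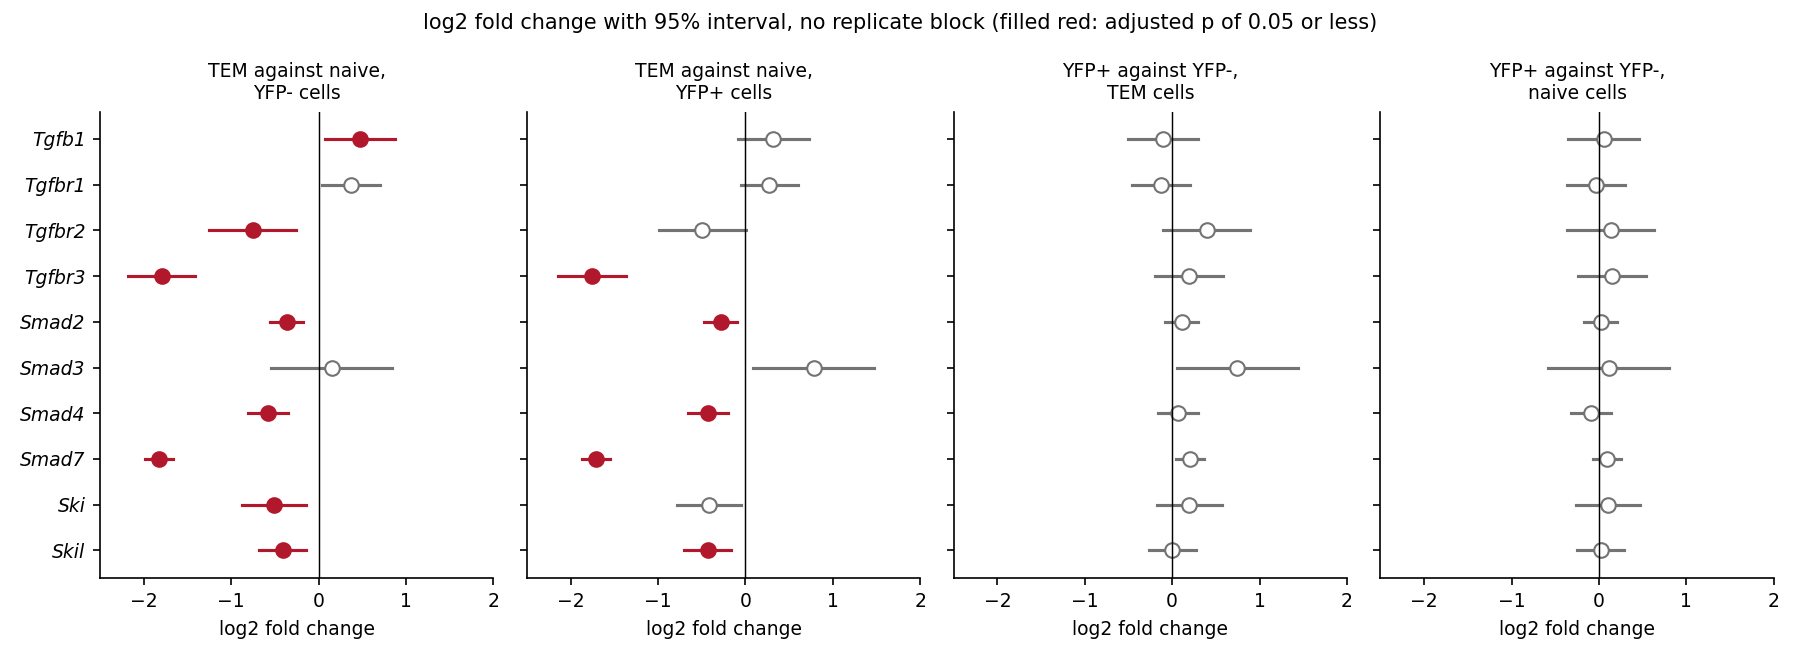
log2 fold change of the 10 genes with 95% intervals in 4 comparisons, from the fit without a replicate block, filled red where the adjusted p was 0.05 or less. *Tgfbr3* and *Smad7* lie near -1.8 in either TEM against naïve panel, and no gene passed in the panels that compare YFP+ with YFP- cells.

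Replicate number set a visible part of the spread in several members. Averaged over the 4 groups, *Smad3* deviated from its group means by 0.43 on the log2 scale in replicate 1 and by -0.49 in replicate 2, and *Tgfbr2* by 0.34 and -0.27. Libraries of the same number deviated together when YFP+ and YFP- cells were compared (correlations of 0.180 to 0.356 in TEM and 0.306 to 0.491 in naïve cells). Where the numbers paired the libraries compared, the result of a fit with the replicate number as a block is therefore given where it changes a call.

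YFP+ and YFP- TEM cells were compared to ask whether cells with a GM-CSF history differ in this pathway from other TEM cells. *Smad3* had 5595, 3441 and 4961 normalised counts in YFP- and 10430, 4985 and 8619 in YFP+ TEM cells. The groups overlapped, since YFP+ replicate 2 was below YFP- replicate 1, but within each replicate number the YFP+ library was higher, by 1.86-fold, 1.45-fold and 1.74-fold. The average was 1.67-fold (log2 0.74 ± 0.32, adjusted p = 0.246), which did not pass. With the replicate block the same fold change had an SE of 0.085 and an adjusted p of 0.000397. Leaving out all libraries of replicate 1, 2 or 3 in the blocked fit gave log2 fold changes of 0.67, 0.85 and 0.72 and adjusted p values of 0.0184, 0.000285 and 0.0228.

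*Tgfbr2* had 22998, 18772 and 20254 normalised counts in YFP- and 34174, 21597 and 26919 in YFP+ TEM cells. It was 1.49-fold, 1.15-fold and 1.33-fold higher in YFP+ cells of replicates 1, 2 and 3 (log2 0.39 ± 0.23, adjusted p = 0.455, and 0.0181 with the block). Without replicate 1 the blocked adjusted p was 0.0759, and without replicate 3 it was 0.267. *Smad7* had 3921, 3811 and 4246 in YFP- and 4622, 4419 and 4742 in YFP+ TEM cells, without overlap. Its log2 fold change of 0.20 ± 0.074 had an adjusted p of 0.146, and of 0.0389 with the block. The blocked call was lost on leaving out any 1 of replicates 1, 2 and 3 (adjusted p = 0.151, 0.0992 and 0.297).

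In all, 0 of the 10 genes were called between YFP+ and YFP- TEM cells, where 2.3% of all genes were called higher and 4.67% lower. Without adjustment limma gave *Smad3* a p of 0.0374 and *Smad7* one of 0.0169, which made 2 of the 10 at 0.05, where 2659 of the 15587 genes tested passed. DESeq2 called *Smad7* alone (adjusted p = 0.0469), and 1588 of all genes. With the replicate block 3 were called higher and 0 lower, where 5.22% and 6.77% of all genes were. The other 7 had log2 fold changes from -0.12 to 0.20. Of these, *Ski* had every YFP+ library above every YFP- one (0.20 ± 0.17, 95% interval -0.17 to 0.57, adjusted p = 0.684). The intervals of *Smad2* (-0.08 to 0.30) and *Smad4* (-0.16 to 0.30) were the narrowest of the 7. Levels of dendritic cell, macrophage, regulatory T cell, NKT cell, NK cell and CD8 markers differ between the same libraries, as given above. Their part in the *Smad3*, *Tgfbr2* and *Smad7* differences was not tested.

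**Figure D3:**
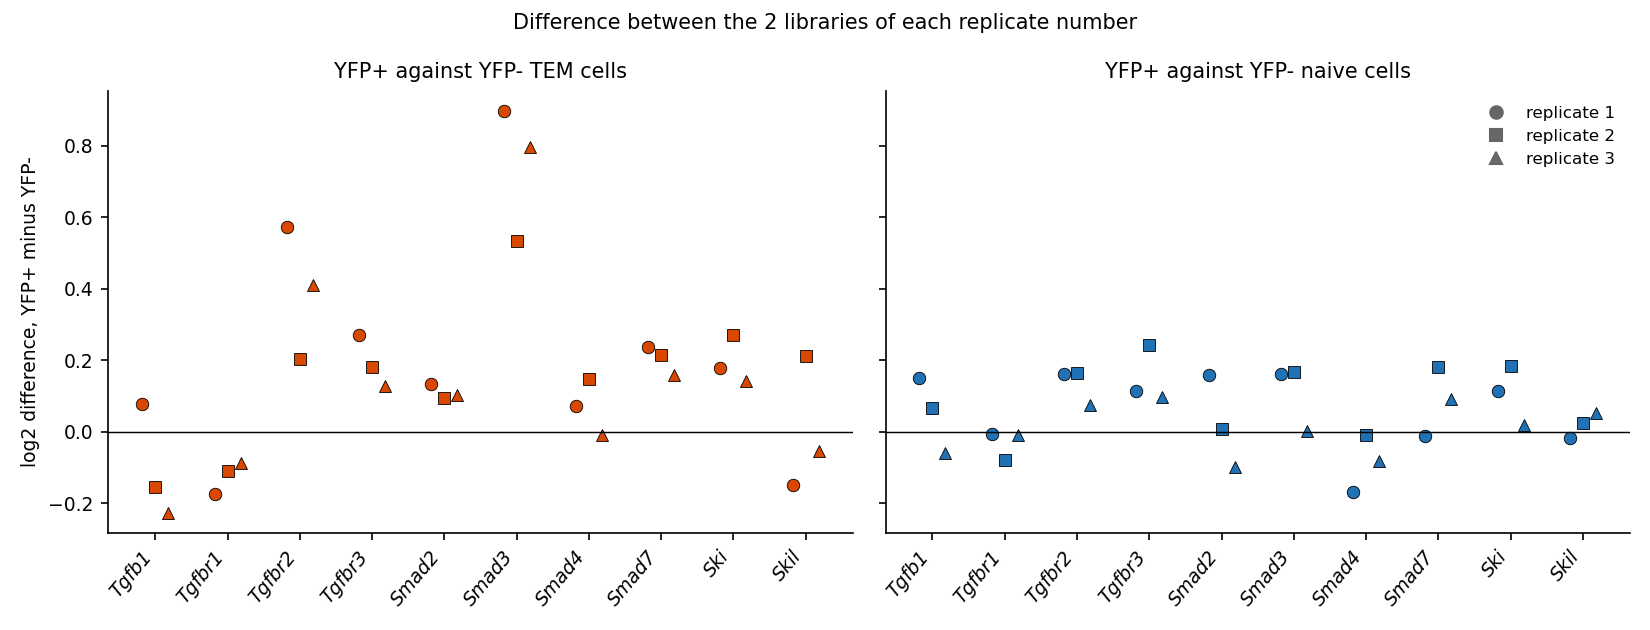
log2 difference between the YFP+ and the YFP- library of each replicate number for the 10 genes, in TEM cells (left) and naïve cells (right). In TEM cells the 3 *Smad3* pairs lie between 0.53 and 0.90, a range that holds 1 pair of another gene (*Tgfbr2*, replicate 1, at 0.57).

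The proximal promoters of *Smad3* and *Tgfbr2* are shown because these genes carried the larger differences between YFP+ and YFP- TEM cells. Each run is the 250 bases before the RefSeq start on GRCm38.p6, written 5′ to 3′ on the strand of the gene (minus for both). *Smad3* is taken from chr9:63757995-63758244 and *Tgfbr2* from chr9:116175364-116175613. Capitals mark the SMAD-binding motif CAGAC or its reverse complement GTCTG, searched on both strands.
Smad3: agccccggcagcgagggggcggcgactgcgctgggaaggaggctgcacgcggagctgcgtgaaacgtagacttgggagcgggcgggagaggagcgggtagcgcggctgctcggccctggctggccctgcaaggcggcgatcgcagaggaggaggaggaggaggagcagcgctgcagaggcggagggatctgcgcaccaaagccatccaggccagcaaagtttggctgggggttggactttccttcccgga
Tgfbr2: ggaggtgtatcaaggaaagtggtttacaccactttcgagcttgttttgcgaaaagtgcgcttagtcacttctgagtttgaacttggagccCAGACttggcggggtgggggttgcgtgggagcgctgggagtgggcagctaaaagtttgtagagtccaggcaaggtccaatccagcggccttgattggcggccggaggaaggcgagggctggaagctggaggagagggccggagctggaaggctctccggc
The letters occur 1 time in the *Tgfbr2* window, starting 160 bases before the start site, and not in the *Smad3* window. They occur in 42.2% of all 32536 RefSeq promoter windows of this length. The *Smad3* window has a GC content of 69.2% and the *Tgfbr2* window of 58.4%, beside a median of 52.4% over all windows. No binding was measured here, so the match is a description of the sequence.

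In naïve cells, 0 of the 10 genes were called between YFP+ and YFP- cells, with or without the block, where 0.00642% of all genes were called higher and 0% lower (518 passed 0.05 without adjustment in limma). *Smad3* had 5663, 2914 and 4247 normalised counts in YFP- and 6336, 3270 and 4249 in YFP+ naïve cells, and the log2 fold change was 0.11 ± 0.32 (95% interval -0.58 to 0.80). Log2 fold changes of the 10 ran from -0.09 (*Smad4*) to 0.15 (*Tgfbr3*). The interval was narrowest for *Smad7*, from -0.07 to 0.25.

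Whether the YFP difference itself differed between TEM and naïve cells was asked with the interaction term. For *Smad3* it was 0.63 ± 0.45 on the log2 scale (adjusted p = 0.777), and with the block the SE was 0.12 and the adjusted p 0.0125. The interaction draws on all 4 groups, and the numbers did not all pair YFP+ TEM with YFP+ naïve libraries. Its blocked result is therefore given as a hint. Without the libraries of replicate 1 the blocked interaction was 0.58 (adjusted p = 0.132), and without those of replicate 3 it was 0.55 (adjusted p = 0.194). The other 9 genes ran from -0.15 (*Tgfb1*) to 0.26 (*Tgfbr2*) and were not called with or without the block. No member was called in the fit without it, where 0.828% of all genes had a higher and 2.73% a lower interaction, beside 1.88% and 3.83% with it.

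The rest of the pathway was described with 8 lists, of which 78 of 80 genes were in the table. The list counts below stand beside the shares of all genes tested. In TEM against naïve cells, 29.9% were called higher and 19.9% lower in YFP- cells, and 24.7% and 16.7% in YFP+ cells. Between YFP+ and YFP- TEM cells, 2.3% were called higher and 4.67% lower. Among 12 tested genes that store, release or present the ligand, 8 rose and 0 fell in YFP- TEM cells, and 6 rose and 1 fell in YFP+ TEM cells. *Itgb8*, an integrin chain that activates latent TGF-beta, rose from 31.0 ± 12.7 to 1385 ± 472 normalised counts in YFP- and from at most 22.3 to 1249 ± 934 in YFP+ cells. *Tgfb3*, another ligand, rose by 3.46 (YFP-) and 3.20 (YFP+) on the log2 scale. *Lrrc32* (GARP), which docks latent TGF-beta on regulatory T cells, rose by 1.83 and 1.71. *Nrros*, which tethers latent TGF-beta on myeloid cells, was the 1 gene of the list called between YFP+ and YFP- TEM cells. It had 5249 ± 1715 normalised counts in YFP- and 2572 ± 540 in YFP+ TEM cells (adjusted p = 0.00812). Naïve cells had 3912 ± 409 (YFP-) and 4009 ± 434 (YFP+), and *Nrros* was called lower in YFP+ TEM than in YFP+ naïve cells (-0.66, adjusted p = 0.0197). Summed dendritic cell and macrophage markers were also lower in YFP+ than in YFP- TEM cells, and their part was not tested.

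*Thbs1*, a secreted activator of latent TGF-beta, rose by 4.09 (YFP-) and 3.62 (YFP+), each ± 1.29 SE, from means of at most 16.8 normalised counts. In YFP+ cells the libraries overlapped, at 0 to 49.2 in naïve and 31.3 to 113 in TEM cells (adjusted p = 0.0406 in limma). Such fitted values depend on the 1 added before the log. The latent TGF-beta binding proteins *Ltbp3* and *Ltbp4* were called higher in YFP- cells, from very low counts, and *Ltbp3* was at least 7.32-fold higher against the floor of 3 reads per library. The median log2 fold change of the list was 2.63 in YFP- cells, 2.35 with *Ltbp3* at its bound, and 1.48 in YFP+ cells.

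Of 10 tested receptors of the wider family, 3 rose and 3 fell in YFP- TEM cells and 4 rose and 3 fell in YFP+ TEM cells, with medians of 0.37 and 0.83. *Acvrl1*, a type I receptor, fell from 2855 ± 567 to 259 ± 118 normalised counts in YFP- and from 2908 ± 454 to 139 ± 65.6 in YFP+ cells. *Acvr1* rose by 4.21 and 3.23 on the log2 scale, *Bmpr2* by 2.00 and 1.70, and *Acvr2a*, an activin receptor, by 1.70 and 2.11. *Acvr1c*, called lower in either fraction, had 2.30 to 24.4 normalised counts in YFP- and 9.30 to 36.4 in YFP+ naïve cells and at most 3 reads in each TEM library. Between YFP+ and YFP- TEM cells 1 receptor was called, the BMP receptor *Bmpr1a* (0.87 ± 0.22, adjusted p = 0.0286).

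Both tested SMADs of the BMP branch fell in TEM cells. *Smad5* had a log2 fold change of -0.88 in YFP- and -0.60 in YFP+ cells, and *Smad1* of -0.58 and -0.51. Of 14 regulators of the receptors and SMADs, 3 rose and 6 fell in YFP- cells and 3 rose and 5 fell in YFP+ cells (medians -0.12 and -0.08). The ubiquitin ligases *Nedd4l* (-1.55 and -1.95) and *Smurf1* (-1.20 and -0.97) fell, while *Pmepa1* and *Ldlrad4*, which restrain SMAD phosphorylation, rose (0.91 and 1.24 in YFP-, 0.95 and 0.94 in YFP+ cells). *Zfyve9* (SARA), an adaptor for SMAD2 and SMAD3, had 67.8 ± 37.2 normalised counts in YFP- and 8.22 ± 5.39 in YFP+ TEM cells (log2 -3.02 ± 0.71, adjusted p = 0.0211).

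Among 9 tested nuclear partners, 1 rose and 4 fell in YFP- TEM cells and 1 rose and 0 fell in YFP+ TEM cells (medians -0.17 and -0.18). The repressor *Zeb2* was the one that rose, by 5.98 and 3.40, while *Crebbp* (-0.55), *Zeb1* (-0.51) and *Sin3a* (-0.38) were among those that fell in YFP- cells. Of the 5 genes of the non-SMAD arm, 1 rose and 2 fell in TEM cells of either fraction, with medians of -0.14 and -0.06. *Traf6* fell (-0.55 and -0.53), *Tab1* fell (-0.34 and -0.19) and *Tab2* rose (0.25 and 0.35).

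Of 14 genes known to be induced by TGF-beta, 12 rose and 0 fell in TEM cells of either fraction, with medians of 4.41 (YFP-) and 3.26 (YFP+). Regulatory T cell markers, of which the list holds *Foxp3* and *Ctla4*, summed to 8726 to 10820 normalised counts in YFP- and 6098 to 6992 in YFP+ naïve cells, below all TEM libraries. The conventional dendritic cell markers summed to 76.0 to 128 and 81.8 to 324 in naïve cells, below all TEM libraries, and the macrophage and neutrophil markers to 202 to 787 and 311 to 3432, which overlapped TEM cells in the YFP+ fraction. Their part in the changes of the list was not tested. *Itgae* (CD103) rose from 126 ± 42.5 to 2511 ± 707 normalised counts in YFP- and from 70.5 ± 22.5 to 1671 ± 501 in YFP+ cells. *Bhlhe40*, a transcription factor, rose by 6.25 and 6.17. *Il10* had at most 3 reads in each naïve library, 193 to 454 normalised counts in YFP- and 123 to 943 in YFP+ TEM cells. Between YFP+ and YFP- TEM cells 2 of the list fell, *Tgfbi* (from 3988 ± 1495 to 317 ± 148) and *Foxp3* (from 16093 ± 4320 to 8792 ± 2281). The *Tgfbi* interaction was called as well (-5.01 ± 0.89, adjusted p = 0.00919). *Tgfbi* is also expressed by myeloid cells, whose part in its fall was not tested. Of the macrophage and neutrophil markers, *Adgre1* (means of 3023 and 390) and *Cd68* (2115 and 321) were called lower in YFP+ TEM cells. *Csf1r* and *Lyz2* were not called. *S100a8* (0.494 and 28.7), *S100a9* (1.48 and 49.1) and *Fcgr1* (3.25 and 14.1) had higher means there, without a call.

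Of 9 genes known to be repressed by TGF-beta, 7 rose and 2 fell in TEM cells of either fraction, with medians of 3.22 and 4.62. *Tbx21* (T-bet) rose by 6.14 and 6.98, and *Gzmb*, a cytotoxic granule protease, by 4.90 and 6.28. *Il2* rose by 5.20 and 5.04. *Ifng* rose from at most 6.37 to between 545 and 1291 normalised counts in YFP- cells and from at most 1.97 to between 536 and 1930 in YFP+ cells. Between YFP+ and YFP- TEM cells *Il2rb*, the receptor chain for IL-2 and IL-15, rose from 33352 ± 4457 to 65830 ± 16373 normalised counts (adjusted p = 0.00268), and *Tbx21* rose by 0.68 ± 0.19 (adjusted p = 0.0477). The interaction was called for *Il2rb* (1.40 ± 0.23, adjusted p = 0.00588). Most genes listed as induced and most listed as repressed thus both rose in TEM cells.

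With the replicate block, 5.22% of all genes were called higher and 6.77% lower between YFP+ and YFP- TEM cells. More genes of 4 lists were called than without it. The counts were 1 higher and 2 lower for ligand handling, 3 and 1 for the other receptors, 2 and 2 for the regulators, and 2 and 1 for the genes known to be repressed. In naïve cells no gene of the 8 lists was called between YFP+ and YFP- cells. With the block *Foxp3* was called lower in YFP+ naïve cells (-0.94, adjusted p = 0.0126), where 0.0257% of all genes were called lower.

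**Figure D4:**
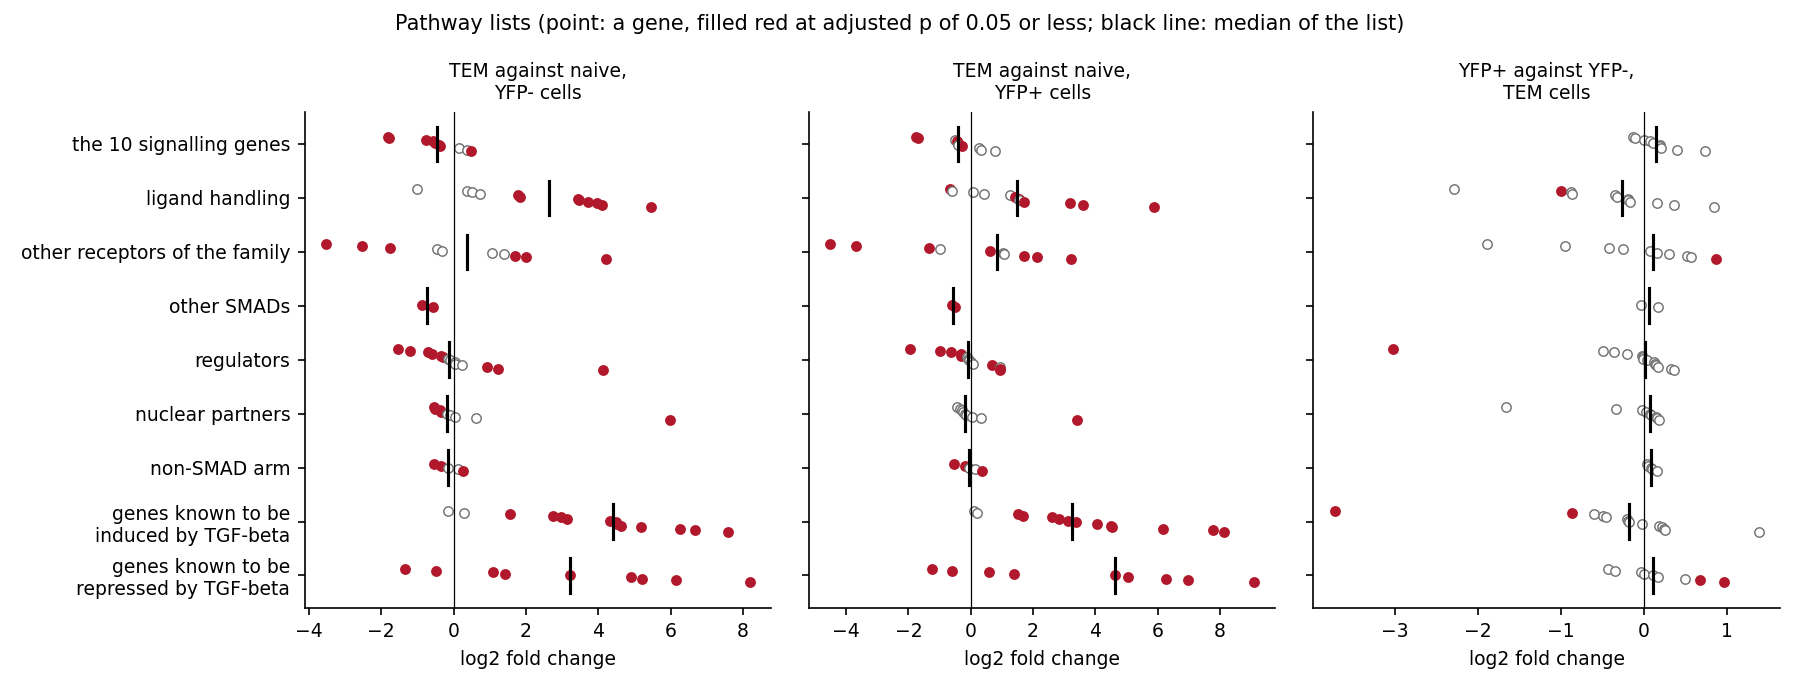
log2 fold changes of the 10 signalling genes and of 8 lists of pathway genes in 3 comparisons, each point a gene (filled red at an adjusted p of 0.05 or less) and each black line the median of its list. The 10 signalling genes lie mostly left of 0 in TEM against naïve cells, while most genes known to be induced or repressed by TGF-beta lie to the right. Fitted values of genes near 0 counts in 1 group depend on the 1 added before the log.

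For 9 of the members the most similar of 11683 expressed genes over the 12 libraries is given, as a description of libraries that share the split into naïve and TEM cells. *Tgfbr3* ran closest to *S1pr1*, the sphingosine-1-phosphate receptor that guides exit from lymphoid organs (Pearson r = 0.995). *Tgfbr2* and *Ski* shared the same closest gene, *Synrg* (r = 0.989 and 0.988). *Smad3* ran closest to *Nr3c1*, the glucocorticoid receptor (r = 0.972). The others were *Smad4* with *Gapvd1* (r = 0.986), *Smad2* with *Spata6* (r = 0.975), *Skil* with *Pitrm1* (r = 0.970), *Tgfb1* with *Cyb5r4* (r = 0.958) and *Tgfbr1* with *Apol9a* (r = 0.902).

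The counts are per gene, and which exons were counted is not given in the sources used here. The genes are located on GRCm38.p6 by Entrez identifier. *Tgfb1* (21803) lies at chr7:25687002-25705077, *Tgfbr1* (21812) at chr4:47353222-47414926, *Tgfbr2* (21813) at chr9:116087695-116175363 and *Tgfbr3* (21814) at chr5:107106567-107289629. *Smad2* (17126), *Smad4* (17128) and *Smad7* (17131) share chromosome 18, at 76241090-76311748, 73634790-73703791 and 75367365-75395935. *Smad3* (17127) lies at chr9:63646766-63757994, *Ski* (20481) at chr4:155154075-155222535 and *Skil* (20482) at chr3:31095058-31122923. *Tgfbr1*, *Tgfbr2*, *Tgfbr3*, *Smad3* and *Smad7* each overlap a predicted gene (Gm32435, Gm31292, Gm8145, Gm51710 and Gm41776) that has no row in the table, and the strand setting of the counting is not given in the sources used here, so reads from these could be included.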

How the data were processed

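RNA was sequenced from 12 libraries of sorted splenic CD4+ T cells. Per the study's methods, total RNA libraries were stranded, DRAGEN mapped the reads to mm10, Rsubread counted them and DESeq2 normalised the counts. The versions, annotation and strand setting are not given in the sources used here. The deposited signal is a normalised count per gene: the authors divided the reads of each library by its size factor. Whole reads were recovered from 100% of values (tolerance 0.01), at 40974124 to 57822269 per library. Between replicates the chi-square of the reads was 37.0 to 81.0 times its degrees of freedom, above counting noise. Genes were named by Entrez identifier from RefSeq (16749 of 17523).

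The members and lists were chosen with earlier results of these data known. Log2(normalised count + 1) of genes with at least 5 in at least 3 libraries (15587) was fitted in limma 3.58.1 (R 4.3.3; lmFit, contrasts.fit, eBayes with trend) with 4 group means over all libraries, with Benjamini-Hochberg adjustment over all genes. The test was checked on simulated data. Alternatives were 0.1 or 5 added before the log, 2 other filters, quantile and TMM scaling, the compared libraries alone, a replicate block, no variance trend, edgeR 4.0.16 and DESeq2 1.42.0 on the recovered reads, fold thresholds and leaving out each library. Over all genes, edgeR on these reads called 7810 and 6321 genes between TEM and naïve cells (YFP- and YFP+), 1126 between YFP+ and YFP- TEM cells, 2 between naïve cells and 480 for the interaction, and DESeq2 called 7954, 6704, 1588, 12 and 838. Both count tools with the block, and the block without 1 replicate number, were added after seeing the data.

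Replicate numbers come from the sample labels, which do not say that a number is a mouse. Libraries of the same number correlated after group means were removed at 0.180, 0.338 and 0.356 (YFP+ with YFP-, TEM), 0.306, 0.491 and 0.360 (naïve), and 0.168, 0.137 and 0.232 (TEM with naïve, YFP-), so the numbers were taken to pair these. For TEM with naïve in YFP+ cells they did not all exceed 0.1 (0.204, -0.0199 and 0.0561). Nothing given here says that libraries came from separate animals beyond the 3 mice the study names, so p values measure the spread between these libraries.

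All 10 members are named. From each list the text names up to 4 called genes with the largest absolute log2 fold change in a comparison. For each member it also names the gene with the highest Pearson r among genes with a symbol and a mean of at least 50. Other genes are sort checks. Some genes that fall under these rules are not reported here. A gene at 3 reads or fewer in every library of a group was taken as at the floor, and a fold against it is a bound.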

Additional observations from a re-analysis of the deposited data

How the results depend on the processing

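Values of the members were recomputed under each alternative. Against naïve YFP- cells, 8 members were called in YFP- TEM cells. This was 5 to 9 when 1 library was left out (5 without YFP- naïve replicate 1 or YFP- TEM replicate 2), 2 with a threshold of 1 on the absolute log2 fold change, and 0 with a threshold of 2. In YFP+ cells the count of 5 became 9 with the replicate block (also 9 in edgeR and 9 in DESeq2 with the block), and 2 and 0 with these thresholds. There the numbers did not all pair the libraries, so the block is given as a hint: it added *Tgfb1* (adjusted p = 0.014 in limma) and *Smad3* (2.18e-05) as higher and *Tgfbr2* (0.00113) and *Ski* (0.00287) as lower, where 28.6% of all genes were called higher and 22.5% lower. Between YFP+ and YFP- TEM cells the count of 0 became 3 with the replicate block (3 in edgeR, 3 in DESeq2 with the block) and 1 in DESeq2 without it. For the interaction it became 1 with the block in limma, 1 in edgeR and 1 in DESeq2, where 1.88% of all genes were called higher and 3.83% lower in limma. The interaction also draws on the YFP+ libraries that the numbers did not all pair. The block changed the calls named in the report and here, and no other call of a member. Of single values, 222 of 250 in the YFP- and 223 of 250 in the YFP+ comparison of TEM with naïve cells kept direction and side of the threshold. Only values that were not called changed sign. With 1 library left out, the log2 fold change of *Smad3* in YFP- TEM against naïve cells ran from -0.10 to 0.38. Between YFP+ and YFP- TEM cells the ranges were -0.18 to 0.0027 (*Tgfb1*), -0.28 to 0.014 (*Tgfbr1*), -0.0055 to 0.13 (*Smad4*) and -0.054 to 0.070 (*Skil*, -0.045 after quantile normalisation). In naïve cells they were -0.14 to 0.23 (*Tgfb1*), -0.078 to 0.015 (*Tgfbr1*), -0.091 to 0.34 (*Tgfbr2*), -0.032 to 0.35 (*Tgfbr3*), -0.054 to 0.070 (*Smad2*), -0.15 to 0.34 (*Smad3*), -0.16 to 0.014 (*Smad4*), -0.074 to 0.28 (*Ski*) and -0.088 to 0.15 (*Skil*). For the interaction they were -0.33 to 0.034 (*Tgfb1*), -0.25 to 0.046 (*Tgfbr1*), -0.16 to 0.23 (*Tgfbr3*), -0.084 to 0.27 (*Ski*) and -0.15 to 0.091 (*Skil*, 0.019 with TMM factors, 0.021 in edgeR and 0.025 in edgeR with the block). Apart from fewer libraries or a higher fold threshold, the cause of these changes was not tested.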
